A study of Homo sapiens with 2 samples.

Results

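The genes described here encode the subunits of prefoldin and the proteins that share its fold, followed in SKOV3 cells in which RUNX2 had been knocked down. Members were taken by name: PFDN1, PFDN2, PFDN4, PFDN5, PFDN6 and VBP1 as prefoldin subunits, and URI1, UXT and PDRG1 as prefoldin-like proteins. They are 9 of the 17240 gene symbols matched to the arrays, read by 11 of 41000 probes. The family was selected on the log2 ratios of cl-sh3 over control, because PFDN6 was strongly upregulated in these same hybridizations, so the PFDN6 values are given as a description, and the question asked of the data is whether the other members followed.

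SKOV3 is a human ovarian adenocarcinoma cell line. The clone cl-sh3 carries a lentiviral pLKO.1-puro construct with a short hairpin RNA against RUNX2, a transcription factor of the runt family, and the control (mock) clone carries the same vector with a scramble sequence. Both were derived under puromycin and each is a single clone, so clonal differences and the knockdown cannot be told apart. Cyanine-labelled RNA of both clones was put on the same Agilent 2-colour arrays, with the control in Cy3 and cl-sh3 in Cy5 in hybridization 1 and the dyes reversed in hybridization 2. The 2 hybridizations compared the same clones on 1 slide, and the paper does not describe separate RNA extractions for them. They count as 1 replicate, their spread is read as technical error, and no p-value is given. The brightest of the probes for RUNX2, of transcript NM_004348, had log2 ratios of cl-sh3 over control of -2.04 and -1.30, a mean of -1.67 or 3.18-fold lower in cl-sh3. The dimmer RUNX2 probes gave means of 0.02 and -0.23.

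Prefoldin is a jellyfish-shaped chaperone of the cytosol that holds newly made actin and tubulin chains in its tentacles and hands them to the chaperonin CCT for folding. PFDN5 and VBP1, also named PFDN3, are its alpha-type subunits, and PFDN1, PFDN2, PFDN4 and PFDN6 are its beta-type subunits. URI1, UXT and PDRG1 form a related complex that also contains PFDN2 and PFDN6 and works with the R2TP co-chaperone in the assembly of RNA polymerases and other large complexes.

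PFDN6 was the only member that rose at least 2-fold in both hybridizations, as 0.122% of the probes kept on the arrays did. Its ratio of cl-sh3 to control, after normalization, was 1.99 on the log2 scale in hybridization 1 and 2.29 in hybridization 2, which is a mean of 2.14 ± 0.21 (SD, n = 2) or 4.40-fold. None of the 8 other members passed 2-fold in either direction. PFDN5, PFDN1 and PFDN4 were above 0 in both hybridizations (29.8% of kept probes), PDRG1, PFDN2, URI1 and UXT were below 0 in both (27.3% of kept probes), and VBP1 lay on both sides of 0. No other member had a ratio of the size measured for PFDN6. The arrays compare labelled RNA copied from the total RNA of each clone. A change in RNA per cell and a change in the share of cells that carry it cannot be told apart there.

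The promoter of PFDN6, the only member past 2-fold, is shown with those of PFDN4 and PDRG1, which stayed below 2-fold. PFDN4 was the only other member whose window held the RUNX core letters, and PDRG1 had the lowest mean ratio. Each promoter is the 250 bases before the start in RefSeq (assembly GRCh38.p14), written 5′ to 3′ on the strand of the gene. PFDN6 lies at chr6:33289347-33289596 on the plus strand, PFDN4 at chr20:54207837-54208086 on the plus strand, and PDRG1 at chr20:31952047-31952296 on the minus strand. Capitals mark matches, on either strand, to the RUNX core TGTGGT or TGCGGT, the ETS core CTTCCGG and the YY1 core AAGATGG (read as CCATCTT on the opposite strand).
PFDN6: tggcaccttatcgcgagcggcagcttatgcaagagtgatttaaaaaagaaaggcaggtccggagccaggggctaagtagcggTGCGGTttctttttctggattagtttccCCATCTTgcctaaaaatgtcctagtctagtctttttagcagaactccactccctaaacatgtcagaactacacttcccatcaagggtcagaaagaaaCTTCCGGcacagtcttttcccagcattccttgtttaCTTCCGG
PFDN4: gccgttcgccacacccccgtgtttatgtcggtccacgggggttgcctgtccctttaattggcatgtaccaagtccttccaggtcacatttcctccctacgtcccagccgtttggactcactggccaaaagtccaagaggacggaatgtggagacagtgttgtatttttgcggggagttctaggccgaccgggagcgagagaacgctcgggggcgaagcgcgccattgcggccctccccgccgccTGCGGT
PDRG1: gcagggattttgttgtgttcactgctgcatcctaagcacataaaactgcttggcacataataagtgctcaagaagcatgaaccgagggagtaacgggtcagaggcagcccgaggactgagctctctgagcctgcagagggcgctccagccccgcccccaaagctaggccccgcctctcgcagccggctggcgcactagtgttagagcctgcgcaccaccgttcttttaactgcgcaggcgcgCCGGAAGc

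Windows were found for 8 of the 9 members, 12 windows in all because some genes have several starts, and PFDN2 had none. PFDN6 has 2 starts, 4 bases apart, and its window and positions are given from the upstream one. The window of the other start holds the same matches. The RUNX core was in 16.3% of all 35116 such windows, and among the members it was in those of PFDN6, where TGCGGT began 168 bases before the start, and PFDN4, where it began 6 bases before it. PFDN4, with the same letters, had a mean log2 ratio of 0.34 (SD 0.33, n = 2). The ETS core, a motif chosen after the windows had been read, was in 8.52% of all windows. It occurred in PFDN6 at 43 and 7 bases before the start, and in 1 copy each in PFDN5 (102 bases), URI1 (27 bases) and PDRG1 (8 bases). The YY1 core, also chosen afterwards, was in 3.70% of all windows and in PFDN6 alone among the members, 140 bases before the start. The matches in the PFDN6 window did not overlap one another. The GC content of the window was 46.8% for PFDN6, 60.8% for PFDN4 and 59.6% for PDRG1, against a median of 58% over all windows. These matches describe letters in a window and do not show that a factor binds there. Whether any of them bears on the ratios was not tested.

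Over the arrays, 36060 of 41000 probes were kept with a ratio in both hybridizations, a probe being kept when at least 1 of the RNAs was well above background in each hybridization. Of these, 44 (0.122%) were higher in cl-sh3 by 2-fold or more in both and 142 (0.394%) were lower by as much, counts that became 77 and 124 with median centring in place of loess and 103 and 253 with the ratios of the scanner software. The median ratio of the kept probes was 0.01, and their hybridizations differed by a median of 0.22 on the log2 scale and by 0.63 at the 95th percentile. All 9 epithelial and ovarian carcinoma markers examined (KRT7, KRT8, KRT18, KRT19, EPCAM, CDH1, PAX8, ERBB2 and MUC16) were well above background in both RNAs, but so were 5 of 6 leukocyte and endothelial markers (PECAM1 was not), so the flag did not separate these lists. None of the markers was 2-fold higher or lower in both hybridizations.

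All 11 prefoldin probes were well above background in both RNAs of both hybridizations, none of their spots carried an outlier flag, and no spot was saturated. Each probe was a single spot on each array. Measured by gene, 1 of 9 members was at least 2-fold higher in both hybridizations, where 0.122% of kept probes were, and this is the member for which the family was chosen. No member was at least 2-fold lower, where 0.394% of kept probes were. The PFDN6 probe ranked 3 of 36060 by mean ratio.

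**Figure D1:**
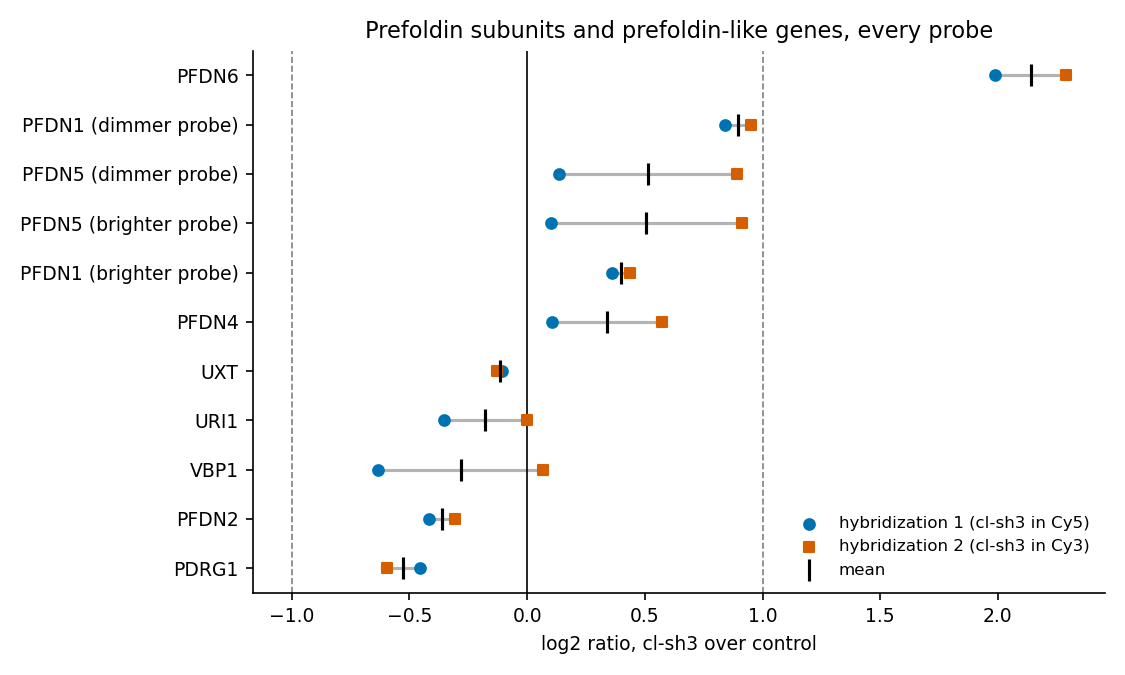
Log2 ratio of cl-sh3 over control (x axis) for each of the 11 prefoldin probes, with a point for hybridization 1, a square for hybridization 2 and a tick at their mean. PFDN6 lies beyond the dashed 2-fold line in both hybridizations (1.99 and 2.29), and the other probes lie inside it.

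PFDN6 is a beta-type subunit common to prefoldin and to the URI1 complex. Its probe (transcript NM_014260) had a signal, less local background, of 2109 in the control (Cy3) and 14769 in cl-sh3 (Cy5) in hybridization 1. With the dyes reversed the signals were 2524 in the control (Cy5) and 11875 in cl-sh3 (Cy3). Both cl-sh3 values were above both control values, and the plain ratio of signals was 7.00 in hybridization 1 and 4.70 in hybridization 2. The Cy5 channel read brighter over the whole array. Its median signal, background included, was 902.5 against 451 in hybridization 1 and 684 against 507.5 in hybridization 2. Part of this was local background, with a median of 166.5 in Cy5 against 46 in Cy3 in hybridization 1 and 164 against 43 in hybridization 2. Background correction and loess both act on these dye differences. The difference of 0.30 between the hybridizations was above the array median of 0.22 and within the 95th percentile.

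PFDN2, the other beta-type subunit found in both complexes, lay on the opposite side of 0. Its signals (NM_012394) were 17489 in the control and 24856 in cl-sh3 in hybridization 1, and 21501 in the control and 16743 in cl-sh3 in hybridization 2. The log2 ratios were -0.42 and -0.31, a mean of -0.36 ± 0.08 (SD, n = 2) or 1.29-fold lower in cl-sh3. Before normalization the higher value followed Cy5 in both arrays, and after it both hybridizations were below 0. The 2 subunits shared by prefoldin and the URI1 complex thus had unequal ratios, as the lower PFDN6 ratio was 1.99 and the higher PFDN2 ratio was -0.31.

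PFDN1, a further beta-type subunit, was measured by probes that differed in size but not in sign. The brighter probe (NM_002622) had signals of 10529 in the control and 24980 in cl-sh3 in hybridization 1, and of 12929 in the control and 16927 in cl-sh3 in hybridization 2. Its log2 ratios were 0.36 and 0.44, a mean of 0.40 ± 0.06 (SD, n = 2) or 1.32-fold higher in cl-sh3. The dimmer probe of the same transcript read 1141 in the control and 3705 in cl-sh3 in hybridization 1, and 1231 in the control and 2221 in cl-sh3 in hybridization 2. Its log2 ratios were 0.84 and 0.95, a mean of 0.89 ± 0.08 (SD, n = 2) or 1.86-fold. All cl-sh3 signals of both probes were above the control signals of the same probe. The dimmer probe was the prefoldin probe nearest to PFDN6 but stayed below 2-fold in both hybridizations under each background correction, normalization and filter tried.

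PFDN4 completes the beta-type subunits. Its signals (NM_002623) were 6571 in the control and 12524 in cl-sh3 in hybridization 1, and 7345 in the control and 10544 in cl-sh3 in hybridization 2, so both cl-sh3 values were the higher. The log2 ratios of 0.11 and 0.57 differed by 0.46, and their mean of 0.34 was about as large as their SD of 0.33 (n = 2).

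Among the alpha-type subunits, PFDN5 is also known as a modulator that binds MYC. The brighter of its probes (NM_002624) read 18130 in the control and 38036 in cl-sh3 in hybridization 1, and 16748 in the control and 30213 in cl-sh3 in hybridization 2. Both cl-sh3 values were above both control values, but the log2 ratio after normalization was 0.10 in hybridization 1 and 0.91 in hybridization 2. The mean of 0.51 was smaller than its SD of 0.57 (n = 2). The dimmer probe gave 0.13 and 0.89, with the same mean of 0.51. The difference between hybridizations, 0.81 for the brighter probe, was beyond the 95th percentile of all kept probes (0.63), and both probes showed it.

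VBP1, the other alpha-type subunit and a partner of the von Hippel-Lindau protein, read (NM_003372) 2122 in the control and 2438 in cl-sh3 in hybridization 1, and 2587 in the control and 2544 in cl-sh3 in hybridization 2. Its log2 ratios were -0.63 and 0.07, with a mean of -0.28 that was smaller than the SD of 0.49 (n = 2). VBP1 was the only member whose hybridizations lay on opposite sides of 0, and their difference of 0.70 was also beyond the 95th percentile. Both alpha-type subunits were thus higher in hybridization 2 than in hybridization 1, where the median of all kept probes differed by 0.04. PFDN1, PFDN2, PFDN4, PFDN6 and URI1 were also higher in hybridization 2, while UXT and PDRG1 were lower, so this was not particular to the alpha-type subunits.

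**Figure D2:**
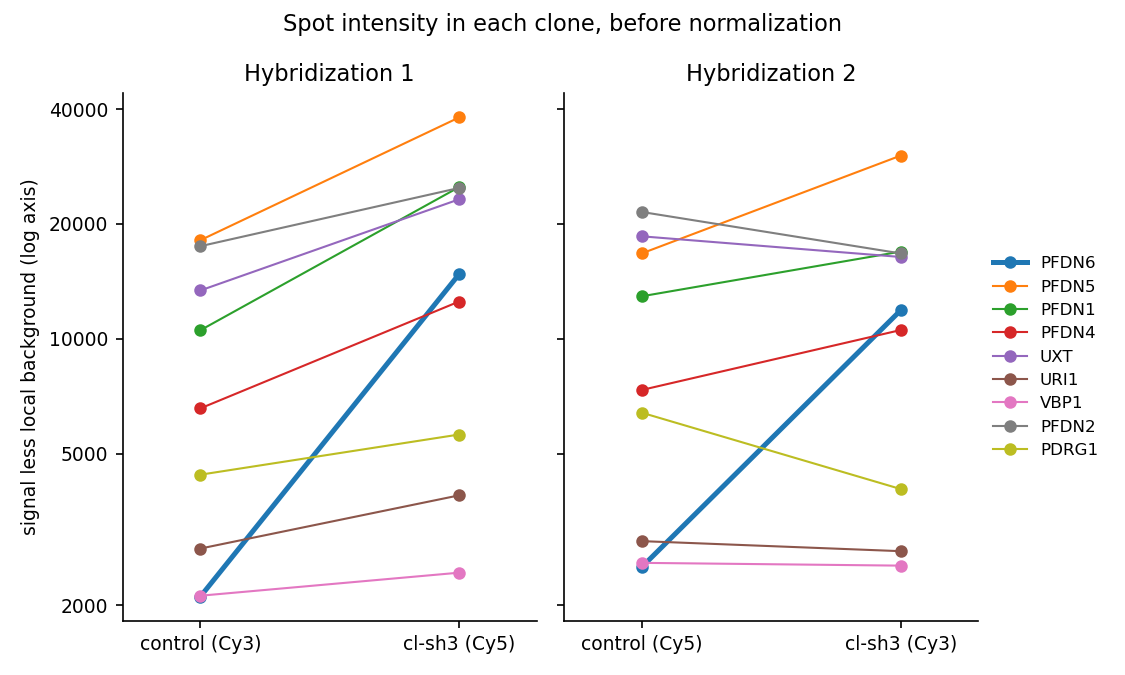
Signal less local background (log axis) of the brightest probe of each member in the control and in cl-sh3, with lines joining the clones within hybridization 1 (left) and hybridization 2 (right), before normalization. Lines of different probes have no common scale; the PFDN6 line climbs from 2109 to 14769 and from 2524 to 11875, while the PDRG1 line climbs from 4404 to 5613 with cl-sh3 in Cy5 and descends from 6402 to 4039 with cl-sh3 in Cy3.

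The 3 prefoldin-like genes were all below 0 in both hybridizations, where 27.3% of kept probes were, URI1 only by -0.0012 in hybridization 2. With median centring in place of loess 1 of the 3 was below 0 in both, and with the scanner software's ratios or no background correction 2 were. PDRG1, a small protein whose gene responds to DNA damage, had the lowest mean ratio of the family. Its signals (NM_030815) were 4404 in the control and 5613 in cl-sh3 in hybridization 1, and 6402 in the control and 4039 in cl-sh3 in hybridization 2. The log2 ratios were -0.46 and -0.60, a mean of -0.53 ± 0.10 (SD, n = 2) or 1.44-fold lower in cl-sh3, a size that did not reach 2-fold.

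URI1, the scaffold of the prefoldin-like complex, read (NM_003796) 2820 in the control and 3888 in cl-sh3 in hybridization 1, and 2950 in the control and 2776 in cl-sh3 in hybridization 2. Its log2 ratio was -0.35 in hybridization 1 and indistinguishable from 0 in hybridization 2 (-0.0012). The mean of -0.18 was smaller than the SD of 0.25 (n = 2). UXT, an alpha-type prefoldin-like protein known as a transcriptional cofactor, read (NM_004182) 13388 in the control and 23210 in cl-sh3 in hybridization 1, and 18563 in the control and 16388 in cl-sh3 in hybridization 2. Its log2 ratios of -0.11 and -0.13 were the closest pair of the family, and the mean was -0.12 ± 0.02 (SD, n = 2). That mean shrank to -0.011 with median centring and to -0.024 with the ratios of the scanner software, so no difference is read from it.

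Ranked by mean ratio of the brightest probe, the order was PFDN6, PFDN5, PFDN1, PFDN4, UXT, URI1, VBP1, PFDN2 and PDRG1. The lower PFDN6 value was 1.08 above the higher PFDN5 value on the log2 scale, the widest gap between neighbours in this order. PFDN4 and UXT were also apart, by 0.21, and PFDN2 and PDRG1 by 0.04. Both gaps were below 0.22, the median difference between the hybridizations of a kept probe, so no order is read from them. The ranges of all other neighbours overlapped, so PFDN5, PFDN1 and PFDN4 could not be ordered among themselves, nor could UXT be ordered against URI1, URI1 against VBP1, or VBP1 against PFDN2.

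**Figure D3:**
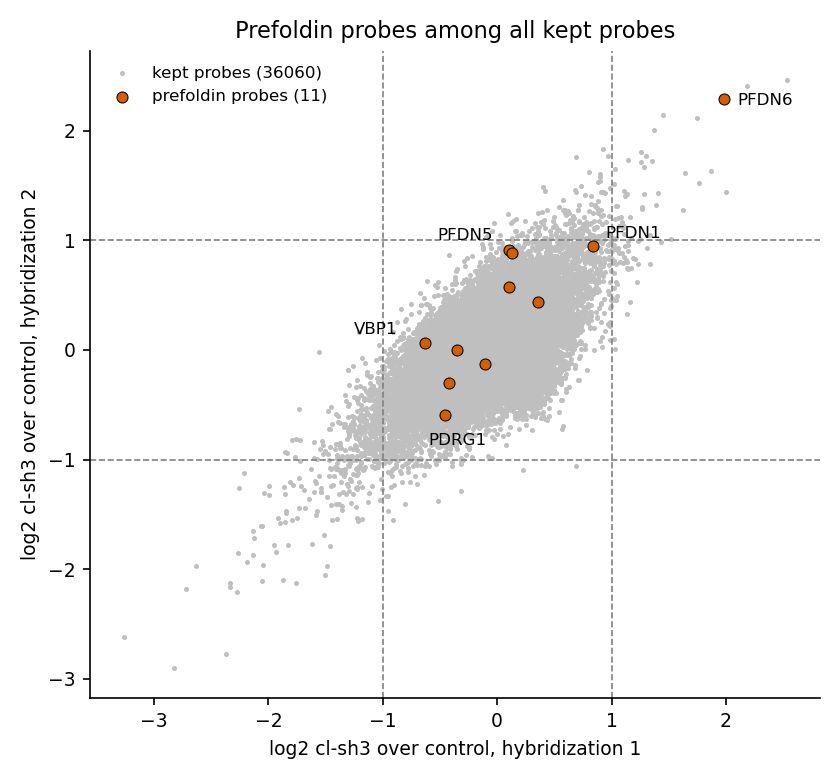
Log2 ratio of cl-sh3 over control in hybridization 1 (x axis) and hybridization 2 (y axis) for the 36060 kept probes (grey) and the 11 prefoldin probes (orange), with dashed lines at 2-fold. PFDN6 stands at the upper right edge, while the other 10 prefoldin probes lie inside the 2-fold lines. The nearest of these to the upper right corner of the lines is the dimmer PFDN1 probe, at 0.84 and 0.95.

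Counted by gene, 4 of 9 members were above 0 in both hybridizations, where 29.8% of kept probes were, and 4 of 9 were below 0 in both, where 27.3% were. Without PFDN6 the counts were 3 above, 4 below and 1 mixed, with a median of -0.15 against 0.01 for all kept probes. That median was -0.23 in hybridization 1 and 0.03 in hybridization 2, a spread larger than its distance from the array median. The 5 canonical subunits other than PFDN6 had a median of 0.34 (0.10 in hybridization 1 and 0.44 in hybridization 2), with 3 above and 1 below 0 in both. The 3 prefoldin-like genes had a median of -0.18.

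The probes closest to PFDN6 over the pair of ratios belonged to EYA4, a transcriptional coactivator with phosphatase activity, at 2.19 and 2.41, LMNB1, the nuclear lamin B1, at 1.45 and 2.14, and ZBED2, a zinc finger protein, at 2.53 and 2.46. Their distances from PFDN6 in log2 units were 0.23, 0.56 and 0.57. No other prefoldin gene was among them, which only restates that no other member reached 2-fold.

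PFDN6 lies in the gene-dense extended class II region of the major histocompatibility complex, and the genes beside it were read to see whether they moved with it. Of the 5 genes on each side in the RefSeq order, 8 had probes and the microRNA genes MIR6873 and MIR6834 had none. None of these 8 genes was 2-fold higher in both hybridizations, where 0.122% of kept probes were, or 2-fold lower, where 0.394% were. Above 0 in both were 3, where 29.8% of kept probes were, and below 0 in both 2, where 27.3% were. Counts this small beside such shares do not show whether the neighbours moved. WDR46, which encodes a nucleolar scaffold protein, is transcribed away from PFDN6 on the opposite strand. The starts of the pair are 358 bases apart, and their promoter windows in RefSeq share 143 bases. Its ratios were -0.45 and 0.50, a mean of 0.02, so it lay on both sides of 0 while PFDN6 was at 1.99 and 2.29. On the other side, RGL2, an exchange factor for Ral GTPases, had ratios of -0.11 and 0.01.

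TAPBP, the tapasin of peptide loading, had the highest mean of these neighbours at 0.60, from 0.98 and 0.23, but the lowest of its 4 probes had a mean of 0.02. RPS18, a protein of the small ribosomal subunit, had the lowest mean at -0.46, from -0.21 and -0.72. VPS52, a subunit of a tethering complex, had ratios of 0.09 and 0.03. The remaining neighbours were B3GALT4, a galactosyltransferase, at 0.12 and 0.18 (its dimmer probe had a mean of -0.076), ZBTB22, a zinc finger protein, at 0.25 and -0.19, and DAXX, a histone chaperone, at -0.09 and -0.12. The 8 neighbours thus ranged between means of -0.46 and 0.60, all below the lower PFDN6 value of 1.99. PFDN6 was chosen for its rise and ranked 3 of 36060 by mean ratio. Nearly any gene would lie below it, so nothing is concluded from that gap.

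**Figure D4:**
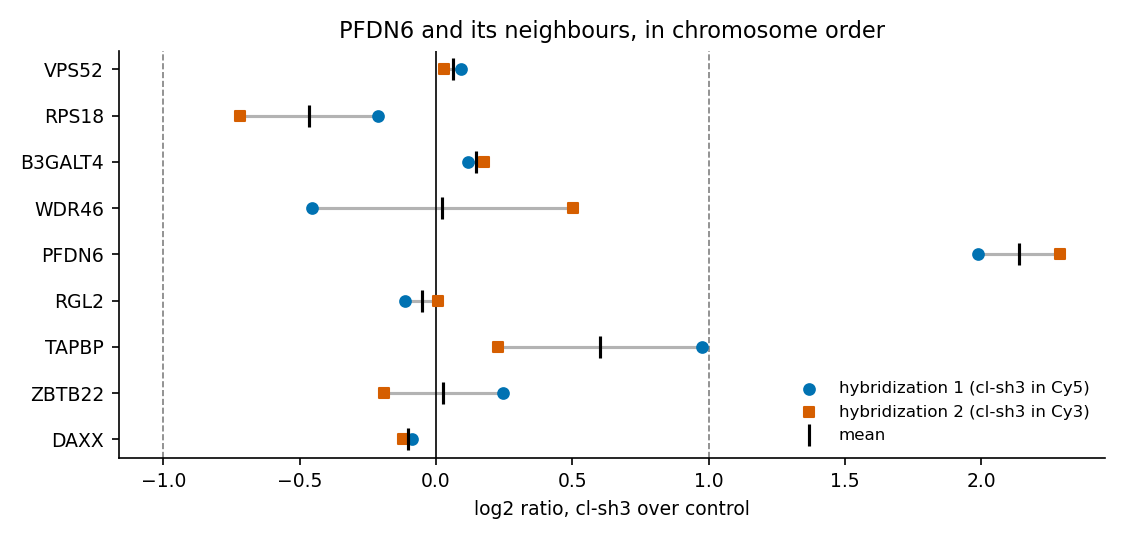
Log2 ratio of cl-sh3 over control (x axis) for PFDN6 and the 8 neighbouring genes with a probe, in chromosome order, by the brightest probe of each, with a point for hybridization 1, a square for hybridization 2 and a tick at the mean. PFDN6 at 1.99 and 2.29 stands beyond the 2-fold line, and the means of its neighbours lie between -0.46 and 0.60.

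The genes that work with prefoldin were taken from lists of the chaperonin, its cofactors, the R2TP partners and the client proteins. CCT is the ring chaperonin that receives the clients of prefoldin, and none of its 8 subunits was 2-fold higher or lower in both hybridizations. By the brightest probe, 5 were below 0 in both, where 27.3% of kept probes were, 2 above, where 29.8% were, and 1 mixed. CCT4 was the lowest, at -0.57 and -0.39 (mean -0.48), and CCT3 the highest, at 0.54 and 0.45 (mean 0.49). The dimmer probes of TCP1 had lower means than CCT4, -0.62 and -0.52, while its brightest probe had -0.13. Of the 12 CCT probes, 8 were below 0 in both and 2 above. The gene median of -0.14 became 0.046 with median centring in place of loess. There 2 genes were below and 2 above 0 in both, so no direction is given for CCT.

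Of the 6 R2TP and polymerase partners of URI1, 2 were above 0 in both (29.8% of kept probes), 2 below (27.3%) and 2 mixed. Their median of -0.04 became 0.01 with median centring. RUVBL1, an AAA ATPase of R2TP, was the lowest gene of all the lists, at -1.05 and -0.51 (mean -0.78), and its dimmer probe gave -0.51 and -0.89. Both were past 2-fold in at most 1 hybridization. Its partner ATPase RUVBL2 was the highest of this list at 0.33 and 0.55 (mean 0.44), so the members of this ATPase pair lay on opposite sides of 0 in both hybridizations.

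The cofactors of tubulin folding and of CCT (TBCA to TBCE, PDCL, PDCL3 and TXNDC9) had a median of 0.03. Of these 8, 3 were above 0 in both (29.8% of kept probes), 1 below (27.3%) and 4 mixed. TBCA, which holds beta-tubulin after its release, was the highest at 0.19 and 0.39 (mean 0.29), and TBCE, which holds alpha-tubulin, the lowest at -0.24 and -0.14 (mean -0.19). None was 2-fold higher or lower in both hybridizations.

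The actin and tubulin genes listed as clients lay mostly above 0. The list leaves out other tubulin genes, among them TUBB1, which the paper reports as lower in cl-sh3. Of 10 genes, 8 were above 0 in both hybridizations, where 29.8% of kept probes were, none was below 0 in both, where 27.3% were, and the median was 0.35 against 0.01 for all kept probes. Of their 23 probes, 21 were above 0 in both. The median was larger in hybridization 1 (0.55) than in hybridization 2 (0.22), and no gene or probe reached 2-fold in both. Actin and tubulin genes have near-identical copies, whose RNA these probes may share. TUBB, a beta-tubulin, was the highest by its brightest probe, at 0.59 and 0.66 (mean 0.62). ACTB, an actin gene, was level with it by its brightest probe, at 0.99 and 0.26 (mean 0.62). A dimmer ACTB probe read 0.94 and 1.04 (mean 0.99), past 2-fold in hybridization 2 alone. The remaining ACTB probes had means of 0.50 and 0.33. ACTG1, the cytoplasmic gamma-actin, was the lowest by its brightest probe, at 0.30 and -0.39 (mean -0.04), although its dimmer probes had means of 0.38 and 0.39.

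The genes examined whose proteins bind a single member were MYC, TRIM28, VHL and PPP1CC. Of these 4, 2 were above 0 in both by the brightest probe (29.8% of kept probes), 1 below (27.3%) and 1 mixed. Their median of 0.095 became -0.0056 with all probes of each gene averaged, so no direction is given. PPP1CC, a catalytic subunit of protein phosphatase 1, was above 0 in both only by its brightest probe, and its dimmer probes had means of -0.030 and -0.17. TRIM28, a corepressor, was the highest at 0.22 and 0.64 (mean 0.43). VHL, the partner of VBP1, was the lowest at -0.51 and -0.24 (mean -0.37). MYC, the partner of PFDN5, had ratios of -0.08 and 0.12. None of these 4 was 2-fold higher or lower in both hybridizations.

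**Figure D5:**
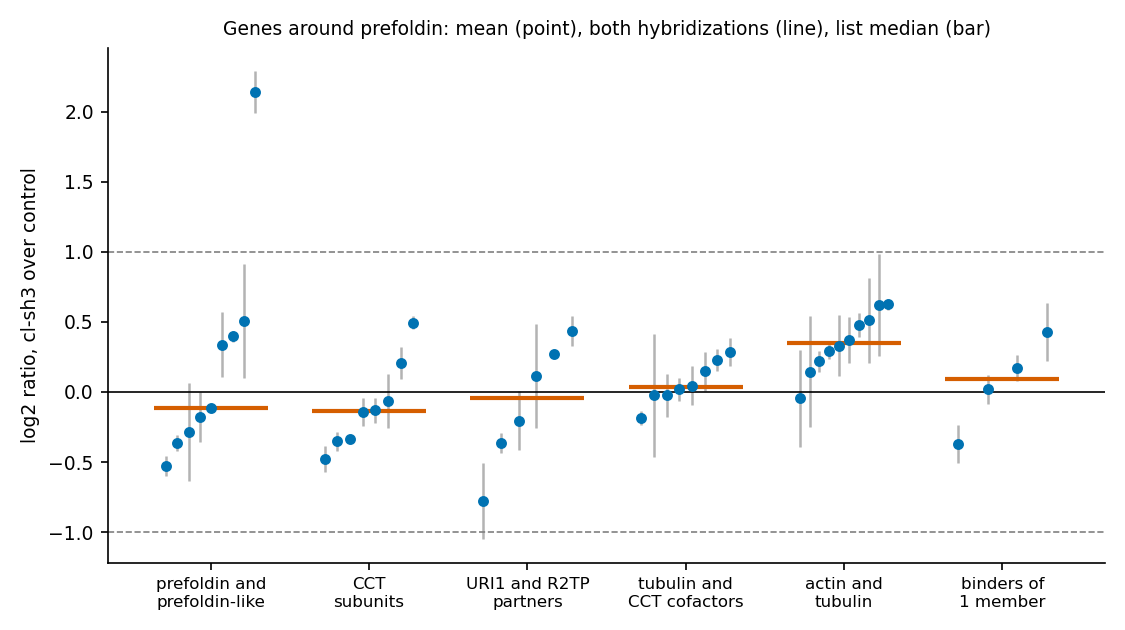
Mean log2 ratio of cl-sh3 over control (y axis) for the genes of the prefoldin family and 5 related lists, by the brightest probe of each gene, with a point for the mean, a line over both hybridizations and a bar at the median of the list. PFDN6 is the single point above the dashed 2-fold line, and the list medians run from -0.14 for CCT to 0.35 for actin and tubulin.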

How the data were processed

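Both hybridizations of cl-sh3 and the control clone were analysed as 1 dye swap. The authors deposited the scanner intensity of each spot from Feature Extraction 10.5.1.1 (file header; the submitters' processing notes name 8.5.1.1), with local background, outlier flags and a flag for signal well above background. The authors also deposited log10 ratios, which equal the log10 ratio of that software to within 0.00245 and 0.00500. The background was corrected by normexp (offset 50) on median pixel intensities in limma 3.58.1 with R 4.3.3. The offset draws ratios of dim spots towards 0. Control spots (1639 of 45015) were removed, spots with an outlier flag (153 and 144) set to missing, each array normalized by loess, spots of a probe averaged and ratios expressed as log2 of cl-sh3 to control. A probe was well above background in an RNA when at least 50% of its spots carried the flag. The number of arrays limits the precision. Per channel, 77.3% to 93.9% of spots were well above background.

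Genes were named through a RefSeq table of GRCh38.p14, which held 18023 of 19228 RefSeq accessions among 32890 accessions, and the RUNX2 accession NM_004348 was named through the supplement of the study. The arrays were annotated on another build, so only promoter windows carry coordinates. A gene is given by its brightest kept probe. The rule for named genes takes all 9 members, the highest and lowest gene of each related list and any past 2-fold in both hybridizations, RUNX2, the 3 named probes nearest to PFDN6 by Euclidean distance and 5 genes on each side of it. The dimmer probes of ACTG1, ACTB, TCP1, RUVBL1, PPP1CC and B3GALT4, and ACTB, TCP1, MYC and PPP1CC themselves, were added after their values were seen. Members and lists were chosen with earlier results of these data known. The steps were tested on simulated data. Alternatives were offset 0, no background correction, median centring, Aquantile, flagged spots kept, no detection filter or a stricter one, the software ratios, the deposited table, each hybridization alone, 2-fold on the mean, and the mean of all probes. Python 3.11.15, numpy 2.4.6, pandas 2.3.3 and matplotlib 3.10.9 were used. A further gene planned for the list of binding proteins is not reported here. Other samples and assays of the study were not analysed here.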

Additional observations from a re-analysis of the deposited data

How the results depend on the processing

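PFDN6 stayed above 0 in 12 of 12 alternatives, with log2 ratios between 1.99 and 2.29, the values of each hybridization alone, and it was the 1 member past 2-fold in each of them. The other members kept their sign in 12 of 12 alternatives, except VBP1 (11 of 12), which was 0.07 in hybridization 2 alone. Of the members other than PFDN6, the number below 0 in both hybridizations fell from 4 to 2 with median centring. Their median ranged from -0.23 to 0.03 when a hybridization was left out. The number of probes at least 2-fold higher was 44, 77 with median centring, 103 with the software ratios, 103 with the deposited table, and 88 to 219 when a hybridization was left out. The number at least 2-fold lower was 142, 253 with the software ratios, 251 with the deposited table, and 196 to 506 when a hybridization was left out. A single hybridization has to pass the rule only once. The CCT median of -0.14 was 0.046 with median centring, -0.25 with the probes of each gene averaged, and -0.25 to -0.13 when a hybridization was left out. The cause of the other shifts was not tested. Each member probe was a single spot on 2 arrays, and their number limits what can be seen below 2-fold.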
